A study of Mus musculus with 2 samples.

Results

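The miR-17-92 cluster and its paralog miR-106b-25 are groups of microRNAs (miRNAs) that are cut from shared primary transcripts. Their members were taken by name from a table of 1374 small RNAs, of which 1214 were mature miRNAs. All 9 names were found, 6 from the chromosome 14 cluster (mmu-miR-17-5p, mmu-miR-17-3p, mmu-miR-19a-3p, mmu-miR-20a-5p, mmu-miR-19b-3p and mmu-miR-92a-3p) and 3 from the chromosome 5 cluster (mmu-miR-106b-5p, mmu-miR-93-5p and mmu-miR-25-3p). The species prefix is left out below. The study measured small RNA in exosomes, vesicles released by cells, from mesenchymal stem cells (MSCs) of C57BL/6 mice and, as the control, from NIH3T3, a mouse fibroblast line derived from the NIH Swiss strain. Both cell types were kept for 72 hours in αMEM with 5% fetal bovine serum, and the labels give no other treatment. There was 1 library of each, so no test was made and no difference has a replicate check. Cell type and mouse strain cannot be told apart, nor can the number of exosomes and the amount of a miRNA in each, and the tissue the MSCs came from, their passage and any depletion of serum vesicles are not stated in the labels. The table holds small RNAs alone, so the labelled cell types could not be checked against marker mRNAs.

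A miRNA guides repression of mRNAs that pair with its seed, bases 2 to 8 from the 5′ end, so miRNAs with the same seed share many targets. The miR-17-92 transcript is induced by Myc and E2F factors in proliferating cells, is known as an oncogene in lymphoma, and is needed for normal lung and B cell development in the mouse. Its miR-17 seed members restrain the cell cycle inhibitor Cdkn1a and the TGF-β receptor Tgfbr2, its miR-19 members account for much of its oncogenic activity in mouse B cell lymphoma, and miR-92a restrains growth of blood vessels. The miR-106b-25 hairpins lie within Mcm7, a replication gene, and carry related seeds.

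The mature sequences show which members of the clusters share a seed. They are given 5′ to 3′ from RefSeq (GRCm38.p6) with the seed in capitals, the miR-17 seed first, then the miR-19 seed, the miR-92 seed and the seed of the opposite arm of miR-17.
miR-17-5p: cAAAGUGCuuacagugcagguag
miR-20a-5p: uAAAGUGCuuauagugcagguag
miR-106b-5p: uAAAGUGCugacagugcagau
miR-93-5p: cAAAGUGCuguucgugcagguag
miR-19a-3p: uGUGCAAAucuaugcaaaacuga
miR-19b-3p: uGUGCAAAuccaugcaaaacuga
miR-92a-3p: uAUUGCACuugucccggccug
miR-25-3p: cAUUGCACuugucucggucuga
miR-17-3p: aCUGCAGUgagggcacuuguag
Over the bases they share from the 5′ end, miR-17-5p and miR-20a-5p differed at 2 of 23 positions, and each differed from miR-93-5p at 4. The pair miR-19a-3p and miR-19b-3p differed at 1 of 23, and miR-92a-3p and miR-25-3p at 3 of 21. The sources used here do not say how reads were assigned between such near-identical miRNAs, so the split within a pair is uncertain.

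In mm10, the members of the larger cluster spanned 813 bases on the plus strand, from miR-17-5p at chr14:115043684-115043706 to miR-92a-3p at chr14:115044476-115044496, inside an exon of the non-coding host gene Mir17hg. The members of the smaller cluster spanned 476 bases on the minus strand, from miR-106b-5p at chr5:138165787-138165807, in an intron of Mcm7, to miR-25-3p at chr5:138165332-138165353. There miR-93-5p and miR-25-3p fell in an intron or an exon of Mcm7, depending on the transcript. The table gave miR-19b-3p and miR-92a-3p a second position in the third paralog on chromosome X, at chrX:52741991-52742013 and chrX:52741854-52741874, and a count cannot be divided between the loci.

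For MSC exosomes the deposited counts totalled 2500459, and for NIH3T3 exosomes 1037147, with 1028186 and 431007 on miRNAs. Levels are given in CPM, counts scaled to 1000000 miRNA counts in the library. Ratios are log2 of MSC over NIH3T3 exosomes on the authors' deposited scale, on which the median miRNA of the 318 that reached 100 CPM in at least 1 library stood at 0.28. Calls were made by size alone, from 2-fold upwards. Brackets hold 95% intervals, which cover counting error only (Wilson for shares, exact Poisson for levels, exact conditional for ratios).

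The members differed greatly in level, and the order was led by the same miRNAs in both libraries. In MSC exosomes miR-25-3p had 10066 counts and in NIH3T3 exosomes 2038, or 9790 and 4728 CPM. For miR-93-5p the counts were 6412 and 1508, or 6236 and 3499 CPM. miR-19b-3p followed with 2568 and 282 counts, or 2498 and 654 CPM. Together these 3 held 96.1% of the members' counts in MSC exosomes (95.8 to 96.3) and 90.3% (89.4 to 91.2) in NIH3T3 exosomes. miR-25-3p ranked 21st of 1214 miRNAs in the MSC library and 33rd in the NIH3T3 library. The counts were compared between miRNAs as deposited, with no correction for sequence.

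The remaining 6 members were far less abundant and their order differed between the libraries. In MSC exosomes miR-20a-5p (227 counts, 221 CPM) was followed by miR-19a-3p (161 counts, 157 CPM) and miR-92a-3p (159 counts, 155 CPM), which did not differ beyond counting error. Then came miR-17-3p (115 counts, 112 CPM), whose interval met that of miR-92a-3p, and miR-17-5p (67 counts, 65.2 CPM) and miR-106b-5p (48 counts, 46.7 CPM), which overlapped. In NIH3T3 exosomes miR-20a-5p (166 counts, 385 CPM) also led this group. There miR-17-5p (88 counts, 204 CPM), miR-92a-3p (65 counts, 151 CPM) and miR-17-3p (49 counts, 114 CPM) came next, each overlapping its neighbour. At the bottom stood miR-19a-3p (23 counts, 53.4 CPM) and miR-106b-5p (20 counts, 46.4 CPM), which overlapped. miR-19a-3p was thus above miR-17-5p in MSC exosomes and below it in NIH3T3 exosomes.

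**Figure D1:**
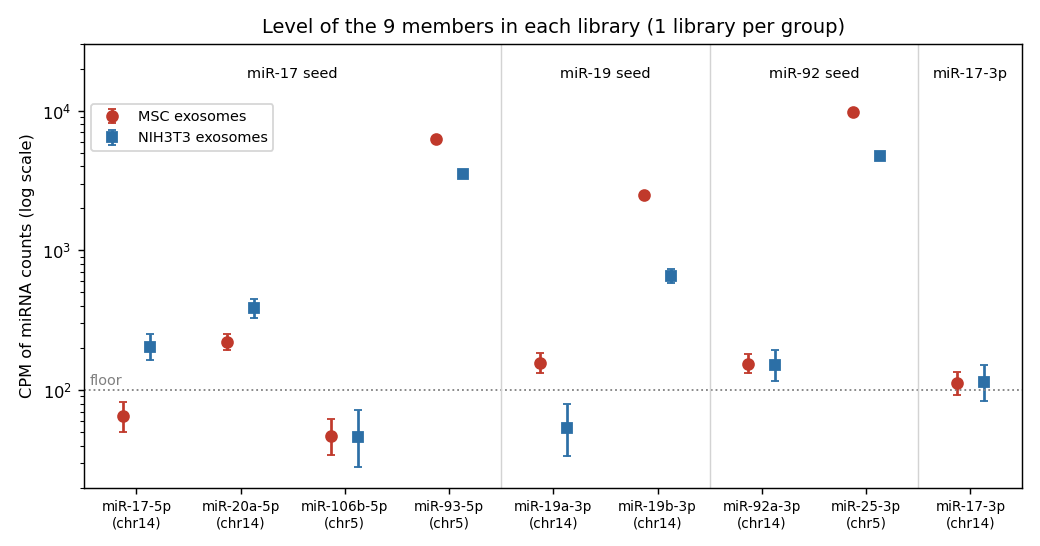
Level of each member in CPM of miRNA counts (log axis) in the MSC library (circles) and the NIH3T3 library (squares), grouped by seed, with 95% exact Poisson intervals; the dotted line is the floor of 100 CPM. miR-25-3p, miR-93-5p and miR-19b-3p stand far above the rest in both libraries, and miR-17-5p and miR-19a-3p lie on opposite sides of each other in the 2 libraries.

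Of the 9 members, 8 reached the floor and miR-106b-5p did not. Of these 8, the MSC library was higher for 2, lower for 2 and within 2-fold for 4, against 34.0% higher and 26.1% lower among all 318 miRNAs over the floor. These shares are close to the background, and miR-19a-3p and miR-17-5p passed the floor through the library where each was high, so the counts of calls say nothing particular about the clusters. The median log2 ratio of the 8 members over the floor was 0.20, beside 0.28 for all 318 miRNAs, and it was -0.20 with miR-106b-5p included. The chromosome 14 members, which share a transcript, went in both directions.

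Among the miR-17 seed members, the 2 from chromosome 14 were lower in MSC exosomes and the abundant member from chromosome 5 was not. miR-17-5p reached 67 counts with MSC and 88 with NIH3T3 exosomes although the MSC library was the deeper, a log2 ratio of -1.87 (-2.36 to -1.41), or 3.64-fold lower. miR-20a-5p had 227 and 166 counts, a log2 ratio of -1.03 (-1.33 to -0.74), close to the bound. This call depended on the scaling, since the ratio was -0.80 when each library was scaled by its miRNA total. miR-93-5p, which restrains Cdkn1a as its relatives do, had 6412 and 1508 counts and a ratio of 0.60 (0.52 to 0.68), within 2-fold. The sparse miR-106b-5p, at 48 and 20 counts, had a ratio of -0.22 with a wide interval (-1.01 to 0.60).

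Summed over its 4 members, the miR-17 seed reached 6754 counts with MSC and 1782 with NIH3T3 exosomes, a log2 ratio of 0.43 (0.36 to 0.51). That sum was mostly miR-93-5p, which held 94.9% of it in MSC exosomes (94.4 to 95.4) and 84.6% (82.9 to 86.2) in NIH3T3 exosomes. Without miR-93-5p the other 3 members had 342 and 274 counts, and the ratio turned to -1.17 (-1.40 to -0.94). Ratios between members inside a library do not depend on the scaling. For each count of miR-17-5p there were 95.7 of miR-93-5p in MSC exosomes and 17.1 in NIH3T3 exosomes, a log2 difference of 2.48 (2.0 to 2.97). For each count of miR-20a-5p there were 28.2 and 9.08 of miR-93-5p, a difference of 1.64 (1.33 to 1.94). Between the chromosome 14 members themselves, miR-20a-5p exceeded miR-17-5p by 3.39-fold in MSC exosomes and 1.89-fold in NIH3T3 exosomes, a difference of 0.84 (0.28 to 1.41).

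Both miR-19 seed members were called higher in MSC exosomes. miR-19b-3p reached 2568 counts with MSC and 282 with NIH3T3 exosomes, a log2 ratio of 1.70 (1.52 to 1.88), or 3.24-fold higher. miR-19a-3p, which has a single position in the table, had 161 and 23 counts and a ratio of 1.30 (0.68 to 2.02), or 2.47-fold higher, with an interval that reached below 2-fold. The miR-19 seed sum of 2729 and 305 counts had a ratio of 1.67 (1.5 to 1.85). Its share of the members' counts was 13.8% (13.3 to 14.3) in MSC exosomes and 7.20% (6.46 to 8.01) in NIH3T3 exosomes.

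Within this pair the proportions could not be told apart between the libraries at this depth. miR-19b-3p exceeded miR-19a-3p by 16.0-fold in MSC exosomes and 12.3-fold in NIH3T3 exosomes, and the log2 difference of 0.38 had an interval that included 0 (-0.34 to 1.04). miR-19a-3p made up 5.90% of the pair in MSC exosomes (5.08 to 6.85) and 7.54% (5.08 to 11.1) in NIH3T3 exosomes. Since the pair differs at 1 base, the ratio of miR-19a-3p is not independent of that of miR-19b-3p if reads were exchanged between them, which was not tested.

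Set directly against each other inside each library, the miR-19 and miR-17 seed members listed for chromosome 14 stood in different proportions. Most of the miR-19 counts, 94.1% (MSC) and 92.5% (NIH3T3), were miR-19b-3p, which also has a position on chromosome X. The miR-19 pair had 9.28 counts for each count of miR-17-5p and miR-20a-5p in MSC exosomes, 2729 against 294. In NIH3T3 exosomes it had 1.20, 305 against 254. The log2 difference was 2.95 (2.65 to 3.25), and no scaling enters it. With single-position members alone, miR-19a-3p against miR-20a-5p gave 0.709 in MSC and 0.139 in NIH3T3 exosomes, a difference of 2.36 (1.64 to 3.12). miR-19a-3p against miR-17-5p gave 2.40 and 0.261, a difference of 3.20 (2.38 to 4.04). Any reads of the more abundant miR-19b-3p assigned to miR-19a-3p would enter both of these ratios, which was not tested. The hairpins of miR-19a and miR-20a are neighbours in the cluster, with the mature arms at chr14:115044048-115044070 and chr14:115044183-115044205.

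**Figure D2:**
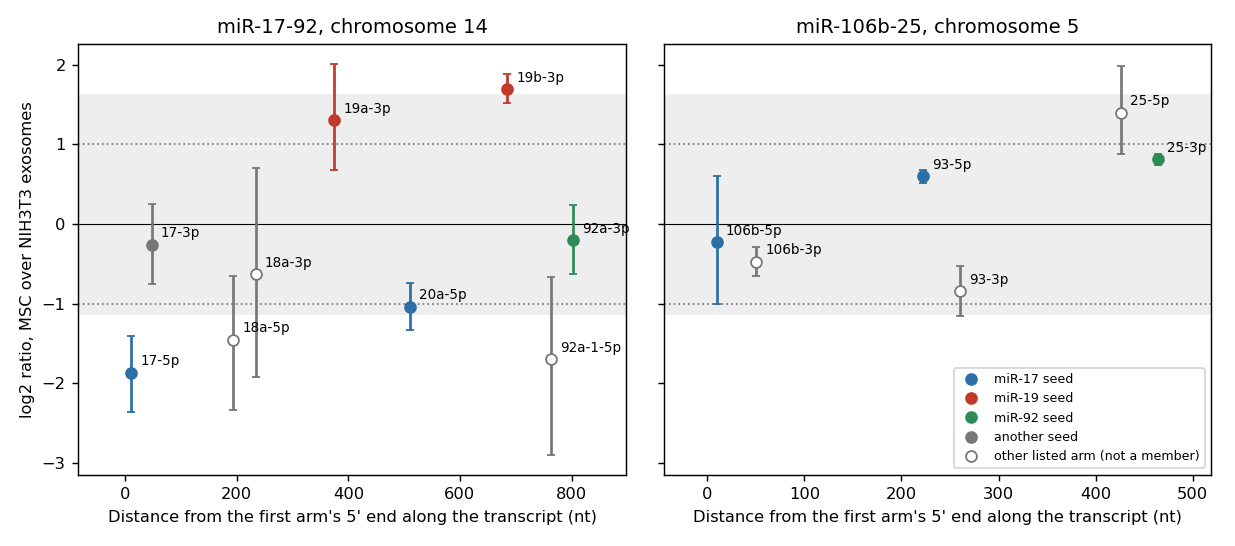
Log2 ratio of MSC over NIH3T3 exosomes (points, 95% counting intervals) against distance in bases along each transcript, coloured by seed. Open points are other listed arms of the same clusters. The band is the interquartile range of all 318 miRNAs over the floor, from -1.13 to 1.62, and dotted lines mark 2-fold. miR-17-5p and miR-20a-5p lie below -1 and miR-19a-3p and miR-19b-3p above 1 in alternation along chromosome 14, while the chromosome 5 members lie between these lines.

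The miR-92 seed was carried almost wholly by the chromosome 5 member. miR-25-3p reached 10066 counts with MSC and 2038 with NIH3T3 exosomes, a log2 ratio of 0.81 (0.75 to 0.88), within 2-fold. It was called higher, at 1.05, when scaled by the miRNA total. miR-92a-3p, the last miRNA of the chromosome 14 transcript, had 159 and 65 counts and a ratio of -0.20 (-0.62 to 0.24).

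miR-25-3p outnumbered miR-92a-3p by 63.3-fold in MSC exosomes and 31.4-fold in NIH3T3 exosomes, a log2 difference of 1.01 (0.57 to 1.44). It thus made up 98.4% (98.2 to 98.7) and 96.9% (96.1 to 97.6) of the seed group, whose sum had a ratio of 0.79 (0.72 to 0.86). The group was the largest of the seed groups, with 51.6% of the members' counts in MSC exosomes (50.9 to 52.3) and 49.6% (48.1 to 51.1) in NIH3T3 exosomes. The miR-17 seed held 34.1% (33.4 to 34.7) and 42.0% (40.6 to 43.5).

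Another 3 miRNAs of the table had the miR-92 seed and came from other loci, and all were sparse. miR-92b-3p had 36 and 14 counts (-0.12, -1.05 to 0.88), miR-32-5p 27 and 13 (-0.42, -1.44 to 0.64) and miR-367-3p, known from pluripotent cells, 10 and 5 (-0.45, -2.17 to 1.41). None of them reached the floor, and with them the group summed to 10298 counts for MSC and 2135 for NIH3T3 exosomes, against 10225 and 2103 without. No further listed miRNA with a RefSeq sequence shared the miR-17, miR-19 or miR-17-3p seed.

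Compared as wholes, the 2 clusters had ratios with overlapping intervals. The chromosome 14 members summed to 3297 counts in MSC and 673 in NIH3T3 exosomes, a log2 ratio of 0.80 (0.68 to 0.92). The chromosome 5 members summed to 16526 and 3566, a ratio of 0.72 (0.67 to 0.78). Chromosome 14 thus held 16.6% of the members' counts in MSC exosomes (16.1 to 17.2) and 15.9% (14.8 to 17) in NIH3T3 exosomes.

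The likeness of the sums rested on the entries that also have a position on chromosome X, above all miR-19b-3p. Without miR-19b-3p and miR-92a-3p the chromosome 14 sum was 570 in MSC and 326 in NIH3T3 exosomes, and its ratio turned to -0.68 (-0.88 to -0.48). The chromosome 14 share then fell to 3.33% (3.08 to 3.61) and 8.38% (7.55 to 9.29). The part of miR-19b-3p that came from chromosome X cannot be told apart from the rest. The 1 listed miRNA found only in the chromosome X paralog, miR-18b-5p, reached 11 counts with MSC and 1 with NIH3T3 exosomes (1.63, -0.81 to 7.40).

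The makeup of the chromosome 14 cluster differed strongly between the libraries, and that of the chromosome 5 cluster differed by a few percentage points. miR-19b-3p made up 77.9% of the chromosome 14 members' counts in MSC exosomes (76.4 to 79.3) and 41.9% (38.2 to 45.7) in NIH3T3 exosomes. miR-20a-5p made up 6.89% (6.07 to 7.80) and 24.7% (21.6 to 28.1), and miR-17-5p 2.03% (1.60 to 2.57) and 13.1% (10.7 to 15.8). On chromosome 5, miR-25-3p made up 60.9% (60.2 to 61.7) and 57.2% (55.5 to 58.8), and miR-93-5p 38.8% (38.1 to 39.5) and 42.3% (40.7 to 43.9). The intervals of these chromosome 5 members do not overlap between the libraries. The log2 difference was 0.22 (0.11 to 0.32) for the ratio of miR-25-3p to miR-93-5p.

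**Figure D3:**
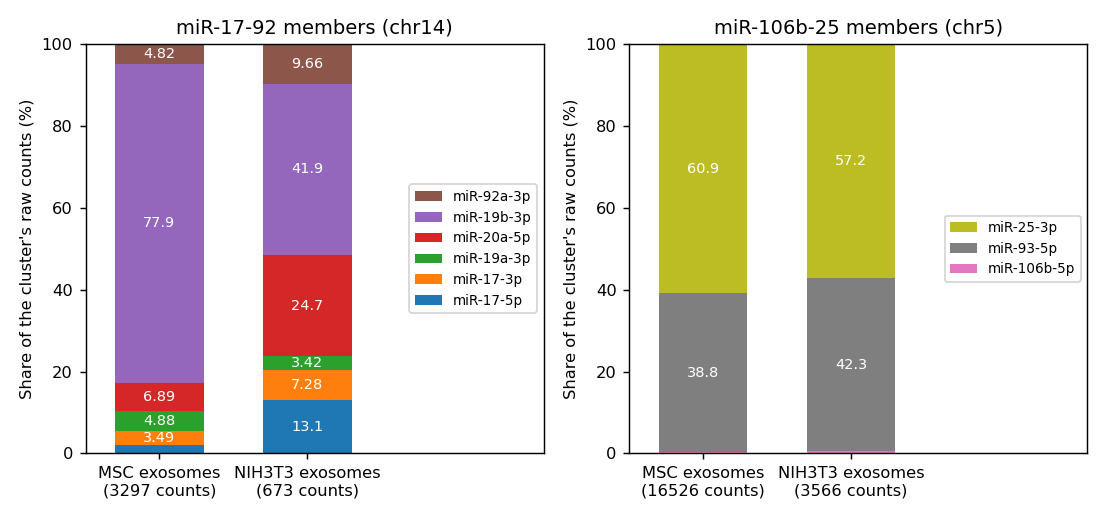
Share of each member in the raw counts of its cluster (percent, stacked to 100) in each library, with the summed counts under the bars. miR-19b-3p takes 77.9% (MSC) and 41.9% (NIH3T3) of the chromosome 14 counts, while miR-25-3p takes 60.9% and 57.2% of the chromosome 5 counts.

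The spread within the chromosome 14 cluster was set beside that of other genomic clusters, defined as miRNAs on the same strand with neighbours within 10 kb. Of 24 such clusters with at least 3 miRNAs over the floor, the chromosome 14 cluster had the fifth widest range of log2 ratios. It was 3.56 from its lowest to its highest, where the median cluster had 2.05. A range tends to widen with the number of miRNAs in it, and this cluster had 6 over the floor. By standard deviation, 1.36 beside 0.89 for the median cluster, it ranked 6 of 24. Its lowest miRNA, miR-17-5p, passed the floor through the NIH3T3 library alone. Its highest, miR-19b-3p, also has a position on chromosome X, and the highest with a single position was miR-19a-3p at 1.30. The chromosome 5 cluster, here with its 3 listed opposite arms and without miR-106b-5p, had a range of 2.24 and ranked 10 of 24. The chromosome 14 cluster was also among 6 clusters (25%) that held both a higher and a lower miRNA. These are descriptions of 2 libraries, and the members of a cluster are not replicates.

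**Figure D4:**
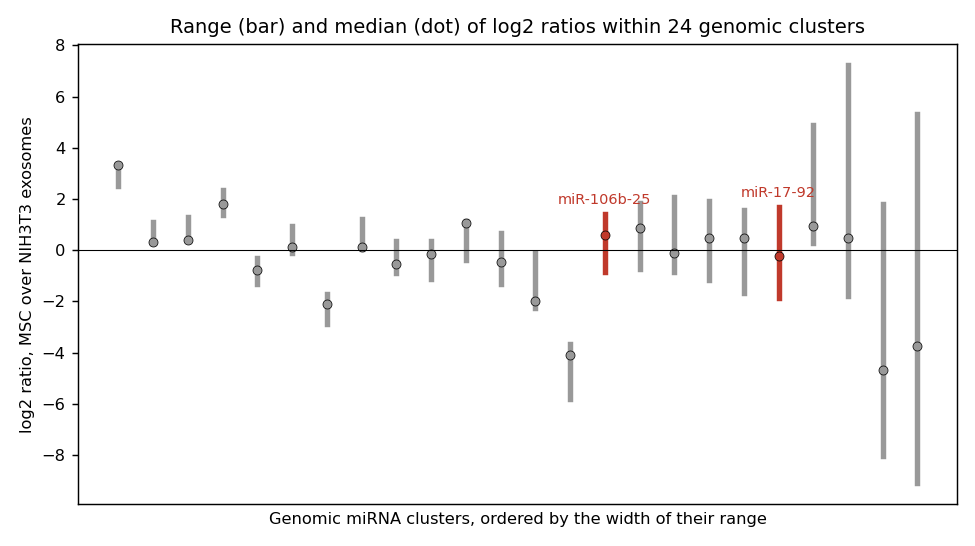
Range (bar) and median (dot) of the log2 ratios of the miRNAs over the floor in each of 24 genomic clusters, ordered by width, with miR-17-92 and miR-106b-25 in red. The miR-17-92 bar runs from -1.87 to 1.70, across 0, and is the fifth widest.

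Beside the 9 members the table listed 7 of 19 other names looked for from the 3 paralog loci, most of them opposite arms of the same hairpins. On chromosome 14, miR-18a-5p, whose seed no member shares, had 26 counts in each library, a log2 ratio of -1.45 (-2.33 to -0.65), and miR-18a-3p had 16 and 9 (-0.62, -1.92 to 0.70). miR-92a-1-5p had 14 and 17 counts (-1.69, -2.90 to -0.66). All 3 were under the floor. On chromosome 5, miR-106b-3p had 792 and 391 counts (-0.47, -0.65 to -0.29) and miR-93-3p 224 and 143 (-0.84, -1.15 to -0.53). miR-25-5p, with 239 and 32 counts, was higher in MSC exosomes (1.40, 0.88 to 1.99). With every listed arm counted, the chromosome 14 sum had a ratio of 0.72 and the chromosome 5 sum 0.62.

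For mir-106b the more abundant arm was not the one in the member list, while both arms of mir-17 are members. The hairpins of mir-17, whose leading arm changed between the libraries, and of mir-106b, whose member arm was the minor one, are shown. They are RefSeq sequences with the 5p arm first and the 3p arm second in capitals, at chr14:115043671-115043754 (plus strand) and chr5:138165737-138165818 (minus strand).
mir-17: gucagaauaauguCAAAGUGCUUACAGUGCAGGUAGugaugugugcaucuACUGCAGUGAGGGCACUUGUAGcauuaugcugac
mir-106b: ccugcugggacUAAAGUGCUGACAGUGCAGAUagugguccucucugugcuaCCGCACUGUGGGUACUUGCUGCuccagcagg
For mir-106b the 3p arm, which lacks the miR-17 seed, exceeded the 5p arm by 16.5-fold in MSC exosomes (792 against 48) and 19.6-fold in NIH3T3 exosomes (391 against 20). The log2 difference between the libraries, 0.24, was within counting error (-0.56 to 1.10). Its neighbour mir-93 was the reverse, with the 5p arm 28.6-fold above the 3p arm in MSC exosomes and 10.5-fold in NIH3T3 exosomes, a difference of 1.44 (1.12 to 1.76).

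For mir-17 the leading arm changed between the libraries. In MSC exosomes miR-17-3p exceeded miR-17-5p, 115 counts against 67 (log2 of 5p over 3p -0.78, -1.24 to -0.33). In NIH3T3 exosomes miR-17-5p exceeded miR-17-3p, 88 against 49 (0.84, 0.32 to 1.38). The log2 difference was -1.62 (-2.33 to -0.92), and miR-17-3p itself differed little between the libraries (-0.26, -0.75 to 0.25). For mir-25 the 3p arm exceeded the 5p arm by 42.1-fold and 63.7-fold, a difference of 0.60 (0.06 to 1.18).

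Among 103 hairpins with at least 10 counts on each arm in both libraries, 14 (13.6%) changed their leading arm, and the median size of the difference was 0.87. By size mir-17 ranked 21st, mir-93 23rd, mir-25 67th and mir-106b 89th. Arm differences as large as that of mir-17 were thus not rare in these libraries. The 5p arm of mir-106b was the minor arm in both libraries.

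**Figure D5:**
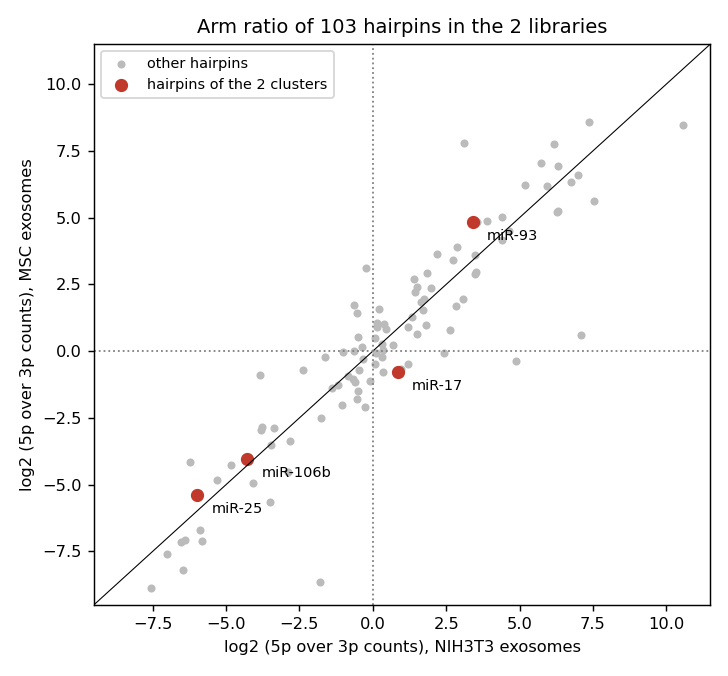
Log2 of 5p over 3p counts of 103 hairpins in the NIH3T3 library (horizontal) and the MSC library (vertical), with the hairpins of the clusters in red and the line of equal values in black. mir-17 lies right of 0 and below it (0.84 and -0.78), mir-106b lies near the line at -4.29 and -4.04, and mir-93 lies above the line.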

How the data were processed

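Small RNA of exosomes was sequenced in 2 mouse libraries, prepared with a QIAseq miRNA kit per the labels' protocols, which also speak of a microarray. Per the file headers, 1 pair of deposited columns held raw counts, whole numbers per entry. The other pair held the authors' log2 normalized values. Each was the log2 of a raw count multiplied by a constant of its library, 0.655 (MSC) or 1.84 (NIH3T3). Positions are in mm10, the build named in the submitters' processing notes. Aligner, counter and whether counts are reads or molecular identifiers were not given in the sources used here.

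Ratios were taken on that scale, with a constant of 0.734 added (1 CPM of the average miRNA total), and called at 2-fold. The floor of 100 CPM in at least 1 library equals 103 raw counts (MSC) or 43.1 (NIH3T3). With 1 library per group no test was made. Intervals (95%) were exact conditional (Clopper-Pearson) for ratios, conditional odds ratios for differences between libraries, Wilson for shares and exact Poisson for levels (scipy 1.17.1), all without the added constant and all for counting error only. The interval code was tested on simulated Poisson counts, which hold counting error alone, so variation beyond that was not covered. Every entry had at least 10 raw counts in 1 library, so sparser miRNAs were not analysed here.

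The names described were the 9 members, every other listed arm of the 3 paralog loci and every listed miRNA with a member's seed. Mature sequences and hairpins came from RefSeq (GRCm38.p6) and matched 1054 of 1214 miRNA entries by name, host genes from GENCODE M21 of the same build. Members and lists were chosen with earlier results of these data known. Alternatives were other scalings, added constants and floors, leaving out the entries with 2 positions, and counting every listed arm or every miRNA with the same seed.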

Additional observations from a re-analysis of the deposited data

How the results depend on the processing

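No paired analysis was possible because each group has 1 library. Another scaling shifts every ratio together, so differences between members inside a library are untouched. With CPM of the miRNA total, the chromosome 14 sum stood at 1.04, the chromosome 5 sum at 0.96, and the miR-17, miR-19 and miR-92 seed sums at 0.67, 1.91 and 1.03. With CPM of all entries these were 1.02, 0.94, 0.65, 1.89 and 1.01, and centred on the median ratio 0.53, 0.45, 0.16, 1.39 and 0.52. With the 10 most abundant miRNAs per library left out of the total they were 0.63, 0.55, 0.26, 1.5 and 0.62. The first 2 of these scalings left 1 member lower, miR-17-5p, and made 3 higher, with miR-25-3p added, while of all 318 miRNAs over the floor 120 and 119 were then higher and 76 lower in each, against 108 and 83. The others, both added constants and both floors left 2 members higher and 2 lower. Of all 318 miRNAs, 97 were then higher and 99 lower when centred on the median ratio. With the 10 most abundant left out of the total, 100 were higher and 91 lower. The added constants left these counts at or close to 108 and 83. Without a floor, 289 of all 1214 miRNAs were higher and 309 lower. At a floor of 10 CPM, 282 were higher and 309 lower. How many miRNAs reached 10 CPM is not given here, so no share can be formed for that floor. Leaving out the entries with 2 positions turned the chromosome 14 sum to -0.68 and its share to 3.33% (MSC) and 8.38% (NIH3T3). With every listed arm the share was 15.9% in MSC exosomes and the chromosome 5 sum 0.62. Depth limits miR-106b-5p and miR-19a-3p most, with 20 and 23 counts in NIH3T3 exosomes.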

Other observations

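The short motifs GGAG and CCCU, described in miRNAs that T cells export in exosomes, were searched for on the miRNA strand. Neither was found in any of the 9 mature sequences, while 17.8% of 1054 listed miRNAs with a sequence held GGAG and 11.4% held CCCU. The 9 sequences are few and many are near-identical, so this absence says nothing particular about the clusters.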
